A study of Mus musculus with 4 samples.

Results

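Collagen genes were followed in mouse pancreatic islets cultured with GKA, a glucokinase activator, or with its vehicle. Members were the genes whose array name follows the form Col, a number, the letter a and a number. Of 26265 named genes on the array, 40 matched, with 58 probes. One of them, Col4a3bp (now Cert1), encodes a ceramide transfer protein and no collagen, and was left out of the counts. This left 39 collagen genes with 57 probes. The islets came from 8-week-old C57BL/6 mice and were kept for 24 h in RPMI1640 with 5.6 mM glucose, together with 30 µM GKA or with DMSO as the vehicle. There were 2 samples per group, labelled replicates 1 and 2, with 1 one-colour Agilent array each. The labels do not name separate mice or cultures. The p-values given here therefore reflect no more than how far apart these samples lie, and that spread may be technical.

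Collagens are secreted proteins built of chains wound into a triple helix. Fibrillar collagens (types I, II, III, V, XI, XXIV and XXVII) assemble into the fibrils of interstitial matrix and are made mainly by fibroblasts and stellate cells. Type IV collagen forms the sheet-like network of basement membranes, and in mouse islets much of that membrane lies along the capillaries and is made by endothelial cells. Fibril-associated collagens sit on the surface of fibrils, type VI forms beaded filaments, and types XV and XVIII are basement membrane zone collagens with sugar chains.

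The collagen transcripts did not move as a block. Col16a1, a fibril-associated chain, rose 2.05-fold with GKA, and Col27a1, a fibrillar chain, rose 1.80-fold. Col1a2, the alpha 2 chain of type I collagen, fell 1.82-fold, and Col14a1, a fibril-associated chain, fell by 0.54 on the log2 scale. None of the 3 tested type IV chains passed the test, a count of 0 by limma at an adjusted p of 0.05, and 0 also had an unadjusted p under 0.05. These counts depended on the scaling. With scaling to spiked-in control RNA 0 collagens were called higher and 12 lower, and without scaling 1 and 10. Most calls over all 17178 genes tested also went down then, with 434 higher and 7576 lower, and 750 higher and 7654 lower. The Col27a1 and Col14a1 calls were lost in 9 and 8 of 16 alternatives. The arrays hold whole islets, so fewer cells of a type and less RNA per cell cannot be told apart.

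The promoters of the type I chain that fell and the fibril-associated chain that rose are shown, since these were the changes with the smallest adjusted p in each direction. Each sequence is the 250 bases before the RefSeq start site on build GRCm38.p6, read 5′ to 3′, and capitals mark matches to CCAAT and to GGGCGG on either strand. The Col1a2 window lies at chr6:4505368-4505617 on the plus strand, and the Col16a1 window at chr4:130047590-130047839, also on the plus strand.
Col1a2: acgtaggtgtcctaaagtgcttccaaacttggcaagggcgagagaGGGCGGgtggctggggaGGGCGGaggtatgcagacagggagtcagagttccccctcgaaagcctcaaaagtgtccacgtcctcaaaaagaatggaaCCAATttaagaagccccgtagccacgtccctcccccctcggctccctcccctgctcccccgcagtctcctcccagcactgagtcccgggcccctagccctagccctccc
Col16a1: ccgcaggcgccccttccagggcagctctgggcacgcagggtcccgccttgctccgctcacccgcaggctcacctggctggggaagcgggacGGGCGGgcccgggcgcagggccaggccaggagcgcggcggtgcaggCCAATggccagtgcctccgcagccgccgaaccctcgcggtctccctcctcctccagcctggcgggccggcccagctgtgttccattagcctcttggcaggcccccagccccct
Both windows held 1 CCAAT match, and 33.8% of all 32851 promoter windows of this length held at least 1. GGGCGG occurred 2 times in the Col1a2 window and 1 time in the Col16a1 window, against 32.7% of all windows. The letters ACGTG were found 2 times in the Col1a2 window and 0 times in the Col16a1 window, with 16.6% of all windows holding them. The AP-1 letters TGACTCA (in 4.46% of all windows), the cAMP response letters TGACGTCA (1.55%), the E box CACGTG (6.02%), the TATA letters TATAAA (12.4%) and the SMAD palindrome GTCTAGAC (0.167%) were found 0 times in either window. The E box contains ACGTG, so those searches overlap. GC content was 62% for Col1a2 and 75.6% for Col16a1. A promoter entry was given for 31 of the 39 collagen genes.

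Of the 39 collagen genes, 22 had a probe well above background in both samples of vehicle, GKA or both, and were tested. The other 17 were not tested. Of these, 11 had no probe well above background on any array, and 6 had one on 1 or 2 arrays. Intensities of the untested genes' probes lay between 1.99 and 21.6, near the dimmest intensity marked well above background (9.94 to 13.6 by array). The untested fibrillar chains were Col2a1, Col11a1 and Col24a1, all best known from cartilage or bone. The untested type IV chains were Col4a3, Col4a4 and Col4a5, which form the mature network of the kidney filter. Also untested were Col8a2 and Col10a1 of the network class, the fibril-associated Col9a1, Col9a3, Col12a1, Col19a1 and Col22a1, the transmembrane Col17a1, Col23a1 and Col25a1, and Col28a1. Col6a3 and Col21a1 were not analysed here. Of the 57 probes, 26 were well above background on all 4 arrays and 24 on none.

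Values below are log2 intensities minus the 75th percentile of the same array, called log2 signal, and changes are GKA minus vehicle with the standard error from limma's fit (n = 2 per group). Probes differ in brightness for reasons of their sequence, so levels are compared between arrays and not between genes. Over all 17178 genes tested, 17.1% passed an adjusted p of 0.05 (Benjamini-Hochberg, limma), 9.11% higher with GKA and 8.01% lower, and the median change was -0.01. Of the tested collagen genes, 4 of 22 passed (18.2%), 2 higher and 2 lower, a share near that over all genes, and their median change was -0.13. The 2 groups did not overlap in 8 of 22 collagen genes (36.4%), 2 higher and 6 lower. Over all genes tested they did not overlap in 65.9%, with 32.4% higher and 33.5% lower. The split depended on the scaling: without scaling between arrays 1 collagen was called higher and 10 lower, and with scaling to spiked-in control RNA 0 higher and 12 lower. Those settings move the median of all genes to -0.40 and -0.56. They called 7654 and 7576 of the 17178 genes lower, and 750 and 434 higher.

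**Figure D1:**
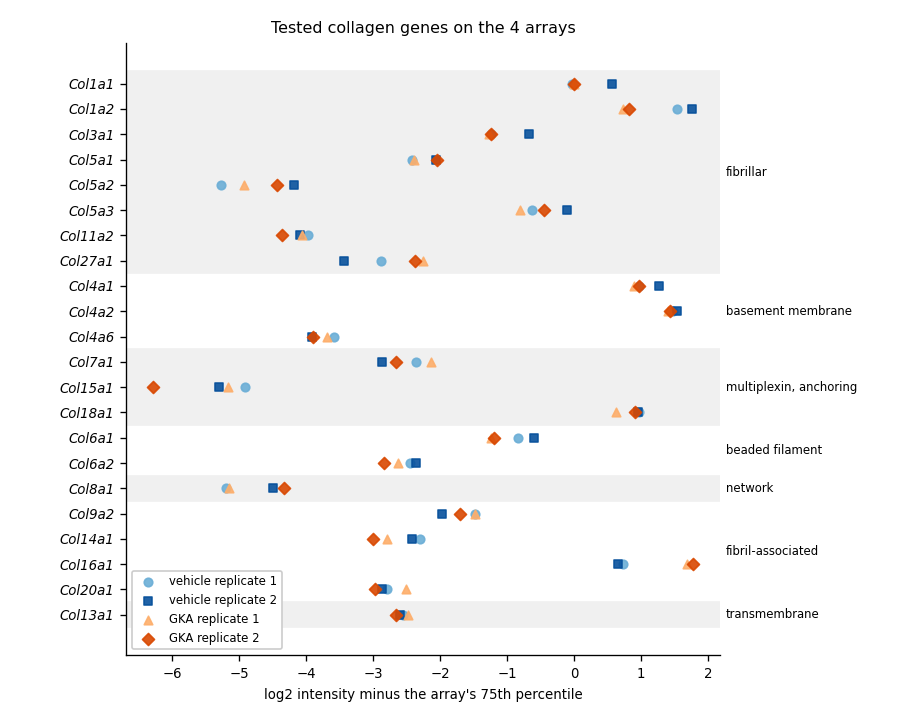
Log2 signal of the tested collagen genes on each array, with 1 point per vehicle or GKA sample. The Col16a1 and Col27a1 points of the GKA samples lie above both vehicle points, those of Col1a2 and Col14a1 lie below, and the points of most other genes overlap.

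The fibrillar class had 8 tested members of 11, and 1 rose, 1 fell and 6 did not pass. The share that passed was 25%, against 17.1% over all genes. Type I collagen, the main collagen of interstitial fibrils, is made of the Col1a1 and Col1a2 chains. The Col1a2 log2 signal was 1.53 and 1.76 in the vehicle samples and 0.73 and 0.82 in the GKA samples. Both GKA samples lay below both vehicle samples, and the intensities before scaling were 2169 and 2556 against 926 and 1055. The change was -0.87 ± 0.13, with a 95% interval from -1.20 to -0.53 and an adjusted p of 0.0177 in limma. Its probe lies at chr6:4490619-4490678 on build mm9. The call was lost without GKA replicate 1 (change -0.82, limma adjusted p 0.0841) and without GKA replicate 2 (change -0.91, limma adjusted p 0.0761).

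Col1a1, the partner chain, had a log2 signal of -0.03 and 0.57 with vehicle and 0.00 and -0.01 with GKA. The GKA samples lay between the vehicle samples, near the lower one, and the change of -0.27 ± 0.22 did not pass (95% interval -0.81 to 0.27, limma adjusted p 0.415). Without vehicle replicate 2 the Col1a1 change was 0.033. Col3a1, the chain of type III collagen, measured -1.24 and -0.67 with vehicle and -1.27 and -1.23 with GKA. As for Col1a1, vehicle replicate 2 stood above the other 3 samples. The Col3a1 change was -0.30 ± 0.21 (95% interval -0.82 to 0.23).

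Type V chains, which join type I chains in fibrils and limit fibril width, did not pass. Col5a1 measured -2.42 and -2.06 with vehicle and -2.39 and -2.04 with GKA, a change of 0.03 ± 0.19 (95% interval -0.45 to 0.50). Col5a2 measured -5.27 and -4.18 with vehicle and -4.93 and -4.44 with GKA, and its interval from -0.92 to 1.00 was the widest of the fibrillar class. Col5a3 measured -0.63 and -0.11 with vehicle and -0.81 and -0.45 with GKA, a change of -0.26 ± 0.22. The groups overlapped for each of the 3 type V chains. Col11a2, a type XI chain, measured -3.97 and -4.09 with vehicle and -4.07 and -4.35 with GKA, again with overlap, and its change was -0.18 ± 0.15.

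Col27a1, which forms thin fibrils and is best known from growth plate cartilage, went the other way. Its log2 signal was -2.88 and -3.44 with vehicle and -2.26 and -2.37 with GKA, so both GKA samples were higher. The change was 0.85 ± 0.21 (95% interval 0.32 to 1.37, limma adjusted p 0.0495), a 1.80-fold rise close to the threshold. Before scaling, the intensities were 102 and 69.6 with vehicle and 117 and 116 with GKA. The call was lost in 9 of 16 alternatives, and the change was 0.56 without vehicle replicate 2 (limma adjusted p 0.0668), 0.79 without GKA replicate 1 (0.162) and 0.90 without GKA replicate 2 (0.142). Without scaling between arrays the change was 0.46, with a limma adjusted p of 0.110. The probe lies at chr4:62995485-62995544 (mm9).

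The basement membrane class had 3 tested members of 6. Col4a1 and Col4a2, whose chains form the type IV trimer found in most basement membranes, start 21 bases apart on opposite strands of chromosome 8 (GRCm38.p6). The Col4a1 log2 signal was 0.97 and 1.27 with vehicle and 0.90 and 0.97 with GKA, a change of -0.18 ± 0.14 (95% interval -0.54 to 0.18, limma adjusted p 0.413). The GKA samples stood at or just below the lower vehicle sample. Col4a2 measured 1.48 and 1.54 with vehicle and 1.41 and 1.43 with GKA. Both GKA samples were lower, but the change of -0.09 ± 0.11 did not pass (95% interval -0.37 to 0.19, limma adjusted p 0.606). Col4a6, which pairs with Col4a5 in smooth muscle and epithelial membranes, measured -3.59 and -3.91 with vehicle and -3.68 and -3.89 with GKA, with overlap (change -0.04 ± 0.16, 95% interval -0.45 to 0.37). A second Col4a6 probe, well above background on 0 arrays, pointed the other way, at 0.45. The Col4a1 and Col4a2 probes lie at chr8:11199009-11199068 and chr8:11448840-11448899 (mm9).

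Set side by side, the median change was -0.22 over the 8 fibrillar chains (range -0.87 to 0.85) and -0.09 over the 3 type IV chains (range -0.18 to -0.04). The difference of these medians, fibrillar minus type IV, was -0.13, smaller than the SD of 0.255 that the replicates of a group gave for it. With 2 samples per group an exact two-sided permutation test cannot give a p below 0.333, so the difference was not tested. It was -0.39 without vehicle replicate 1 and 0.077 without vehicle replicate 2.

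The vehicle samples differed in both classes, mostly in 1 direction in the fibrillar class. Relative to each gene's own mean, the median of the fibrillar chains was -0.14 on vehicle replicate 1, 0.41 on vehicle replicate 2, -0.17 on GKA replicate 1 and -0.04 on GKA replicate 2. Vehicle replicate 2 was above vehicle replicate 1 in 6 of 8 fibrillar chains, by a median of 0.44, while GKA replicate 2 minus GKA replicate 1 had a median of 0.06. For type IV chains the same medians were 0.01, 0.07, -0.06 and -0.06. Their vehicle gaps went both ways, at 0.30 for Col4a1, 0.06 for Col4a2 and -0.33 for Col4a6. Whatever its direction, the vehicle gap had a median size of 0.54 in the fibrillar chains, 0.30 in the type IV chains and 0.15 over all genes. It was larger than the GKA change in 5 of 8 fibrillar chains, 2 of 3 type IV chains and 11 of the 22 collagens (50%), against 33.4% of all genes tested. These spreads are descriptions with no test.

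**Figure D2:**
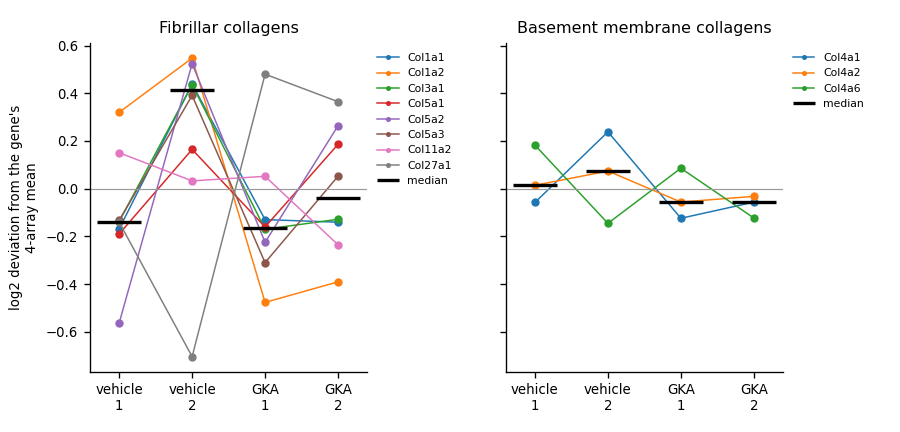
Deviation of each fibrillar (left) and type IV (right) chain from its own mean over the 4 arrays, in log2 units; lines join the values of 1 gene and black bars mark the median on each array. The fibrillar median is 0.41 on vehicle replicate 2 and between -0.17 and -0.04 on the other 3 arrays, while the type IV median stays between -0.06 and 0.07.

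Some lists without collagens moved with this gap and others did not, and the 3 shown first were picked after their values were seen. Of 15 stellate cell and fibroblast markers 11 were tested, and 9 of the 11 were higher on vehicle replicate 2 than on vehicle replicate 1, with a median gap of 0.26. The same held for 12 of 14 laminins and other basement membrane partners (median gap 0.31) and 7 of 8 collagen degradation genes (0.27). Over all genes it held for 7298 of 17178 (-0.04). GKA replicate 2 was above GKA replicate 1 in 8 of 11, 11 of 14 and 5 of 8 genes of these 3 lists. Those median gaps were 0.18, 0.08 and 0.17, against -0.04 over all genes (7147 of 17178 above). In other lists, vehicle replicate 2 was higher in 15 of 21 hydroxylation, folding and export genes and 5 of 8 cleavage and crosslinking genes. So it was in 4 of 4 fibril-binding proteoglycans and 7 of 10 TGF-beta genes, but in 2 of 7 collagen receptors. Endothelial, duct and leukocyte markers had 7 of 14, 3 of 7 and 4 of 10. Beta cell, other endocrine and acinar markers had 2 of 8, 2 of 6 and 1 of 4. The summed signal of the stellate cell and fibroblast markers, as a multiple of each array's 75th percentile, was 7.97 and 10.0 in the vehicle samples, against 8.55 and 9.71 with GKA. Vim weighs most in this sum, with a log2 signal of 1.86 and 2.26 with vehicle and 2.02 and 2.20 with GKA. Pdgfra, Fbln1, Gli1 and Dpt were not tested for lack of signal. Thy1, a surface protein of fibroblasts, was the 1 of these markers that passed (9.09%, against 17.1% over all genes), and it rose (change 0.64 ± 0.12, limma adjusted p 0.0259). The Thy1 call was lost in 6 of 16 alternatives. The pericyte and muscle-type markers Cspg4, Acta2 and Des, chosen after their values were seen, had changes of -0.68, -0.52 and -0.47 with limma adjusted p of 0.0514, 0.0544 and 0.0568, and their GKA samples lay below their vehicle samples. The matrix proteoglycan Dcn was also lower without overlap (change -0.41), short of the threshold. Rgs5, another pericyte marker, went the other way without overlap (change 0.70 ± 0.27, limma adjusted p 0.130). The groups overlapped for Tagln (change -0.06) and Pdgfrb (-0.19), so the pericyte and muscle-type markers did not share a direction. The median change over the list was -0.06. The part of these cells in the fibrillar values was not tested. All 14 endothelial markers were tested. Their sums were 45.8 and 45.2 with vehicle and 49.5 and 44.6 with GKA. Egfl7 weighs most in these sums, with a log2 signal of 4.25 and 4.25 with vehicle and 4.41 and 4.18 with GKA. Of the 14, 2 rose (Cdh5 and Ramp2) and 1 fell (Emcn), together 21.4% against 17.1% over all genes, and the median change was -0.03. The Cdh5 call was lost in 9 of 16 alternatives and the Emcn call in 4. The Ramp2 call was lost in 7, and its change reversed in 1. All 4 arrays were on 1 slide, with the vehicle samples at the first 2 positions and the GKA samples at the next 2, so the place on the slide and the treatment cannot be told apart.

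The fibril-associated class had 4 tested members of 9, and it held the collagen with the smallest adjusted p. Col16a1 encodes a chain found near fibrils and basement membranes in many tissues. Its log2 signal was 0.73 and 0.65 with vehicle and 1.68 and 1.78 with GKA. Both GKA samples were higher by far more than the samples of a group differed, and the change was 1.04 ± 0.12 (95% interval 0.75 to 1.33, limma adjusted p 0.00951). The intensities before scaling also rose, from 1246 and 1187 to 1788 and 2049. All 3 probes of the gene went up: the tested probe at chr4:129776333-129776392 (mm9), a dimmer probe next to it at chr4:129776460-129776519 with a change of 0.89, and a much dimmer one at chr4:129756457-129756516 with 1.21. The call was lost without GKA replicate 2 (change 0.99, limma adjusted p 0.0572). With scaling to spiked-in RNA the change was 0.49, with a limma adjusted p of 0.112.

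Col14a1, which binds fibrils through partners such as decorin, measured -2.30 and -2.42 with vehicle and -2.80 and -3.00 with GKA. Both GKA samples were lower, and the change was -0.54 ± 0.13 (95% interval -0.87 to -0.20, limma adjusted p 0.0491). A second, dimmer probe gave -0.48, and the tested one lies at chr15:55352264-55352323 (mm9). The call was lost when any 1 of the 4 arrays was left out, with changes from -0.64 to -0.43 and limma adjusted p from 0.0686 to 0.200. It was also lost with normexp background correction, with a change of -0.21 after 75th percentile scaling (limma adjusted p 0.195) and -0.32 after quantile scaling (0.0665). Col9a2, a cartilage chain, measured -1.48 and -1.97 with vehicle and -1.47 and -1.71 with GKA and did not pass (change 0.14 ± 0.20). Col20a1 had a change of 0.09 ± 0.18 and its second probe 0.20.

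**Figure D3:**
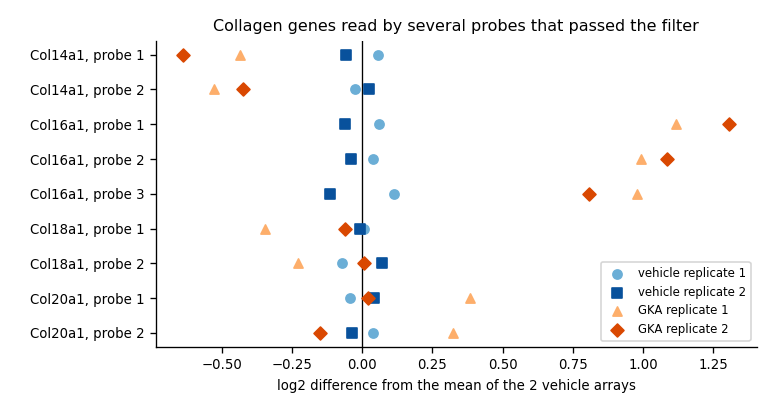
Log2 signal of each probe on the 4 arrays, as the difference from the mean of the 2 vehicle samples, for collagen genes with more than 1 probe that passed the filter; markers stand for single samples. The 3 Col16a1 probes have both GKA samples to the right of the vehicle samples (mean changes of 1.21, 1.04 and 0.89), and the 2 Col14a1 probes have them to the left (-0.54 and -0.48).

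Type VI chains build beaded filaments around cells and next to basement membranes. Col6a1 measured -0.83 and -0.60 with vehicle and -1.24 and -1.20 with GKA, and Col6a2 -2.45 and -2.35 with vehicle and -2.63 and -2.83 with GKA. In both genes the 2 GKA samples lay below the 2 vehicle samples. The Col6a1 change was -0.50 ± 0.13 (95% interval -0.83 to -0.17) and just missed the threshold, with a limma adjusted p of 0.0565; it passed in 7 of 16 alternatives. The Col6a2 change was -0.33 ± 0.13 with a limma adjusted p of 0.135.

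Among the basement membrane zone collagens, Col18a1, the source of the fragment endostatin, measured 0.98 and 0.96 with vehicle and 0.62 and 0.91 with GKA. Both GKA samples were lower, GKA replicate 1 more so, and the change was -0.20 ± 0.14 (95% interval -0.56 to 0.15). Its second probe gave -0.11. Col7a1, the anchoring fibril chain of skin, measured -2.36 and -2.87 with vehicle and -2.13 and -2.66 with GKA, with overlap (change 0.22 ± 0.25). Col15a1 was dim, with a change of -0.62 ± 0.38 and only 1 of 2 GKA arrays well above background. Its 2 other probes were not well above background on any array and pointed in opposite directions, at -1.20 and 0.88. With Col15a1 and Col18a1 added to the type IV chains, the median change of the 5 tested genes was -0.18 and 0 passed.

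Col8a1, a short-chain collagen of endothelial and lens capsule membranes, measured -5.19 and -4.49 with vehicle and -5.15 and -4.33 with GKA, a gap between replicates larger than its change of 0.10 ± 0.35. Col13a1, a transmembrane collagen of cell junctions, measured -2.55 and -2.59 with vehicle and -2.48 and -2.65 with GKA. Its change was 0.01 ± 0.12, with a 95% interval from -0.30 to 0.32.

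**Figure D4:**
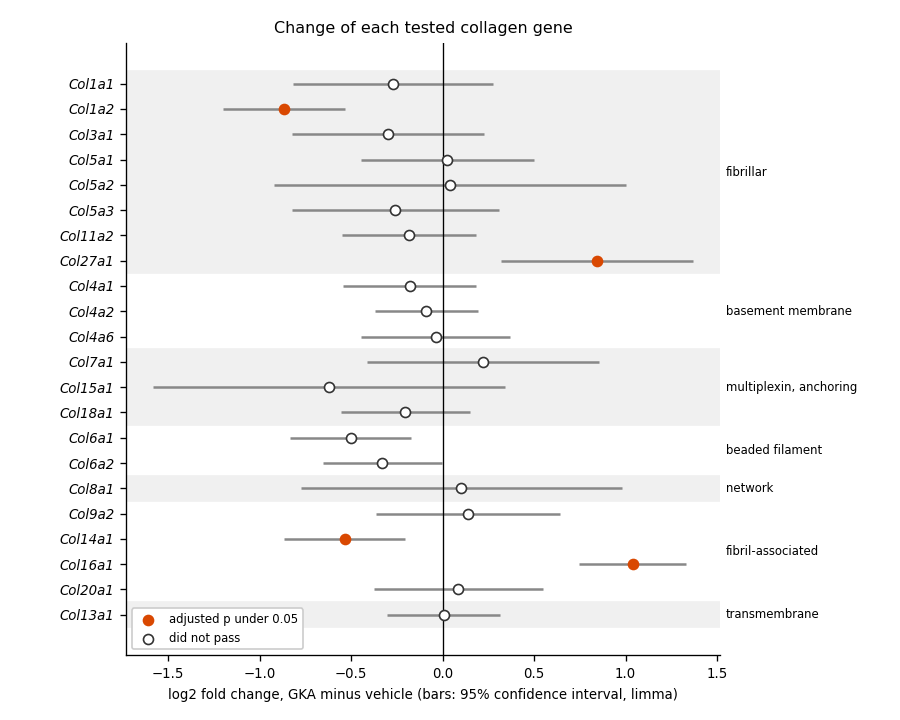
Change in log2 signal with its 95% interval for the 22 tested collagen genes, grouped by class. The intervals of Col16a1 (0.75 to 1.33) and Col27a1 (0.32 to 1.37) lie above 0, those of Col1a2 (-1.20 to -0.53), Col14a1 (-0.87 to -0.20), Col6a1 (-0.83 to -0.17) and Col6a2 (-0.66 to -0.0042) lie below, and the other intervals include 0.

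Collagen chains are hydroxylated, folded and exported by a shared set of enzymes and chaperones of the endoplasmic reticulum. All 21 genes of this list were tested, and 4 rose, 0 fell and 17 did not pass, with a median change of 0.41. The share that passed was 19.0%, near the 17.1% over all genes. P4hb, protein disulfide isomerase and the beta subunit of prolyl 4-hydroxylase, measured 4.07 and 4.43 with vehicle and 5.47 and 5.51 with GKA (change 1.25 ± 0.16, limma adjusted p 0.0122). Ppib, a proline isomerase that speeds helix folding, measured 3.01 and 3.24 with vehicle and 4.20 and 4.23 with GKA (change 1.09 ± 0.13, limma adjusted p 0.0116). Fkbp14, another isomerase, rose by 0.79 ± 0.12, and Plod3, a lysyl hydroxylase named here after its value was seen, by 0.55 ± 0.13. P4hb and Ppib serve secreted proteins in general. Values were mixed among the members that did not pass, of which the following were picked after their values were seen. The lysyl hydroxylase Plod2 changed by 1.04 ± 0.32 and the prolyl 4-hydroxylase subunit P4ha1 by 0.60 ± 0.23. The procollagen chaperone Serpinh1 (Hsp47) changed by -0.23 ± 0.13 and the isomerase Fkbp10 by -0.30 ± 0.16. Colgalt1 (listed as Glt25d1) had the lowest change of the list, -0.50 ± 0.12, just short of the threshold (limma adjusted p 0.0502). Of the 21 genes, 14 had a change above 0 and 7 below.

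Of the enzymes that cleave and cross-link procollagen, 8 of 13 were tested and 0 passed in limma, with 0 at an unadjusted p under 0.05 and a median change of -0.10. Bmp1, the procollagen C-proteinase, changed by 0.10 ± 0.13 and the lysyl oxidase Loxl2 by -0.07 ± 0.11. Of 13 collagen degradation genes 8 were tested, 1 rose and 1 fell (25%, against 17.1% over all genes), with a median of -0.22. The rise counted there is that of Mmp13. Mmp13, a collagenase, was not well above background in either vehicle sample and passed the filter through the GKA samples alone. As a bound for the main processing, its signal with GKA was at least 1.77-fold higher. Its limma adjusted p of 0.0294 rests on vehicle values below that mark, so it lends no support to a rise. The call was lost in 4 of 15 alternatives, and the change over them went down to 0.34 on the log2 scale, less than that bound. Timp3, a matrix-bound inhibitor of such proteases, fell by 0.61 on the log2 scale (SE 0.13), and its call was lost in 6 of 16 alternatives. Bounds of this kind set the brighter group's mean against the dimmer group's mean of the higher of the probe's own signal and the dimmest signal well above background on that array.

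Among 9 collagen receptors, 7 were tested, 0 rose and 2 fell (28.6%), with a median of -0.30. The 2 include Itga11, whose call rests on values not well above background. Over all genes 17.1% passed, the share to set beside each list of this paragraph. Itga1, the alpha 1 integrin chain that binds type IV collagen, measured -4.20 and -4.21 with vehicle and -5.11 and -5.08 with GKA (change -0.89 ± 0.11, limma adjusted p 0.0122). Itga11, the integrin chain of fibroblasts that binds type I collagen, was not well above background on the GKA arrays. It passed the filter through the vehicle samples alone, and with the main processing the bound was 1.33-fold lower. That bound did not hold under all the alternatives. Its limma adjusted p of 0.0188 rests on GKA values below that mark, so it lends no support to a fall. Both probes are dim, and both calls were lost with normexp background correction. With 75th percentile scaling after it, the Itga1 change was -0.036 (limma adjusted p 0.809) and the Itga11 change 0.091 (limma adjusted p 0.525). Of 16 laminins and other basement membrane partners 14 were tested and 1 passed (7.14%), with a median of 0.05. This was Lama3, a laminin chain of epithelia, which rose by 1.55 ± 0.23. Of 8 fibril-binding proteoglycans 4 were tested and 1 passed (25%), with a median of 0.02. This was Fmod, fibromodulin, which rose by 0.80 ± 0.19 (limma adjusted p 0.0464). Its probe is also dim, and the call was lost in 10 of 16 alternatives. All 10 genes of the TGF-beta list were tested and 2 passed (20%), with a median of -0.07. Tgfb3, a ligand, rose by 0.65 ± 0.12, and Tgfbi, a secreted target that binds collagen, fell by 0.89 (SE 0.13). The Tgfb3 call was lost in 7 of 16 alternatives and the Tgfbi call in 3.

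**Figure D5:**
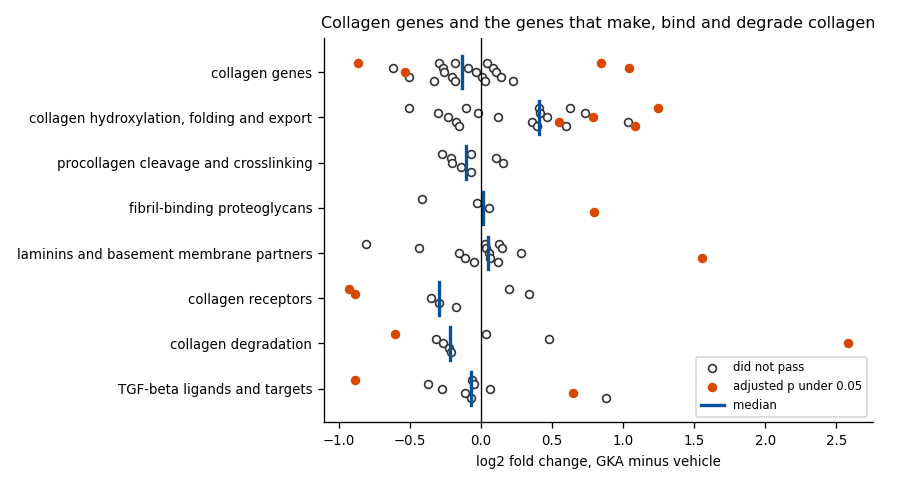
Change in log2 signal, GKA minus vehicle, of the tested collagen genes and of every tested gene in the lists of collagen partners; filled points passed an adjusted p of 0.05 and blue bars mark medians. The hydroxylation, folding and export list has a median of 0.41 and the other medians lie between -0.30 and 0.05.

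Measured were 8 of 8 beta cell markers, 6 of 6 other endocrine markers and 4 of 10 acinar markers. All 14 endothelial and all 10 leukocyte markers and 7 of 8 duct markers were measured too, so these counts do not test the tissue label. Beta cell marker sums were 1119 and 1116 with vehicle and 1378 and 1342 with GKA; Pdx1 and Mafa rose and the median change was 0.33. Sst rose among the other endocrine markers (median 0.31) and Bhlha15 among the acinar ones (median 0.07). Leukocyte markers had 4 of 10 lower (40%, against 8.01% of all genes), Lyz2, Aif1 and Emr1 with the largest changes. The list had a median of -0.45 and sums of 9.83 and 9.09 against 8.79 and 8.07. Of the 10, 7 had a change below 0 and 3 above. Among the 3 were Cd68 (0.39, without overlap, limma adjusted p 0.193) and Csf1r (0.08). Among 7 tested duct markers Spp1 rose and Krt7 and Cldn4 fell (median -0.08). The shares that passed were 25% for beta cell, 16.7% for other endocrine, 25% for acinar and 42.9% for duct markers, against 17.1% over all genes. The part of these cell types in the collagen values was not tested. Of the 136 tested genes in all partner and marker lists, 30 passed, but 4 passed without GKA replicate 1 and 4 without GKA replicate 2. Over all genes, the same omissions left 620 and 533 calls of 2941.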

How the data were processed

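RNA of 4 islet samples was labelled with Cy3 and hybridised to 1 array each. The authors deposited each array's Agilent Feature Extraction output, whose intensity values are background-subtracted but not scaled between arrays; version 10.7.3.1 is given per the file headers and 9.1 per the submitters' processing notes. Gene names and mm9 probe positions are those of the authors' deposited table. The ratio of GKA over vehicle that the authors deposited there is the quotient of unscaled group means (median 0.841). No mm9 annotation was used here, so exons and introns are not named.

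Intensities were log2-transformed and the 75th percentile of each array subtracted. These were 751 and 755 with vehicle and 557 and 598 with GKA, and 59.7 to 63.5% of probes were well above background. Control and outlier spots were left out; 0 spots were saturated. Probes well above background on both arrays of a group were kept, and the brightest probe stood for its gene. The 2 groups were compared with limma 3.58.1 in R 4.3.3 (lmFit, eBayes, two-sided, 2 residual and 3.33 prior degrees of freedom), tested on simulated data. The number of arrays limits precision. Normexp alternatives used the median in place of the mean spot signal, which was not used here. The members and gene lists were chosen with earlier results of these data known. Named were all collagens that passed, all tested fibrillar and type IV chains, the 2 brightest of other classes, genes whose probes disagree in sign, and up to 3 passing genes per list and direction, or its 2 brightest where none passed. One marker list is not reported here.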

Additional observations from a re-analysis of the deposited data

Results flagged for a closer look

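Signal outside the tests appeared for 3 collagens on GKA replicate 1 alone, where a probe was well above background while it was on neither vehicle array. The Col4a5 probe had an intensity of 13.0 there, against 13.7 and 8.47 on the vehicle arrays and 10.2 on GKA replicate 2. The transmembrane collagen Col23a1 had 13.0 there, against 7.94 and 5.36 with vehicle and 15.4 on GKA replicate 2. Col25a1, also a transmembrane collagen, had 13.9 there, against 6.43 and 9.11 with vehicle and 16.1 on GKA replicate 2. The lowest intensity marked well above background was 9.94 on GKA replicate 1 and 13.6 on GKA replicate 2, so the mark came at a lower intensity on the former. None of the 3 genes was tested.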

How the results depend on the processing

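Signal over background limits the 17 untested collagens, and the number of arrays limits the other values. Of 22 collagens, the 4 calls became 11 without scaling, 12 with spike-in scaling and 2 with the replicate block. With no filter on dim probes 0 of 39 were called (10 at an unadjusted p under 0.05). Over all genes, the 2941 calls became 8404, 8010, 1916 and 223 under the same settings. For the fibrillar class, the 2 calls became 5 with spike-in scaling, 1 with median scaling, 1 with quantile scaling, 1 with the replicate block and 0 with no filter (3 unadjusted). Type IV calls went from 0 to 2 without scaling and to 2 with spike-in scaling. The 30 partner and marker calls became 64, 59, 46 and 0 without scaling, with spike-in scaling, with normexp and 75th percentile scaling, and with no filter (43 unadjusted). The fibrillar median was -0.61 without scaling, -0.77 with spike-in scaling and -0.61 from the authors' deposited ratio. The type IV median was -0.47, -0.63 and -0.47 there, -0.14 with median scaling, -0.12 with normexp and 75th percentile scaling, 0.11 with no filter and -0.18 with Col15a1 and Col18a1 added. Leaving out 1 sample gave 0 to 3 collagen calls, 0 to 2 fibrillar calls, 4 to 33 partner and marker calls, a fibrillar median from -0.51 to 0.019, a type IV median from -0.14 to -0.058 and a difference from -0.39 to 0.077.

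Reversals touched genes that had not passed, except Itga11 and Ramp2. Without scaling, Bmp1 was -0.28, Col13a1 -0.38, Col20a1 -0.30, Col5a1 -0.36, Col5a2 -0.35, Col7a1 -0.16, Col8a1 -0.28 and Col9a2 -0.24. With spike-in scaling they were -0.44, -0.54, -0.46, -0.52, -0.51, -0.32, -0.44 and -0.41, and Ramp2 -0.0016. With median scaling Col13a1 was -0.044, Col5a1 -0.026 and Col5a2 -0.013. With quantile scaling Col5a2 was -0.057 and Col8a1 -0.0051. With normexp and quantile scaling Col13a1 was -0.026, Col5a2 -0.066 and Col8a1 -0.0072. With normexp and 75th percentile scaling Col11a2 was 0.22, Col15a1 0.13, Col4a6 0.15 and Itga11 0.091. With the mean of a gene's probes Loxl2 was 0.0039. Leaving out 1 sample gave ranges of -0.080 to 0.093 for Col13a1, -0.57 to 0.033 for Col1a1, -0.15 to 0.32 for Col20a1, -0.20 to 0.13 for Col4a6, -0.15 to 0.20 for Col5a1, -0.50 to 0.58 for Col5a2, -0.52 to 0.0039 for Col5a3, -0.044 to 0.49 for Col7a1, -0.31 to 0.51 for Col8a1 and -0.11 to 0.39 for Col9a2. The causes were not tested.

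The replicate numbers do not pair the samples by any label. Deviations of same-numbered samples correlated at 0.08 over all 17178 genes and 0.72 over the 22 collagens. With the replicate block, 1014 genes were higher and 902 lower, and of the collagens 1 and 1; limma's adjusted p was 0.0293 for Col16a1, 0.0338 for Col1a2, 0.0521 for Col27a1 and 0.0584 for Col14a1.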

Other observations

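Some collagen genes stand on the array under other names and were not matched. Col6a6, a type VI chain, is listed as E330026B02Rik. Its intensities were 132 and 117 with vehicle and 55.3 and 74.0 with GKA, and both GKA samples were lower. The change in log2 signal was -0.58 ± 0.16 (limma adjusted p 0.0626), which did not pass, as for Col6a1 and Col6a2. A second Col6a6 probe had intensities of 87.6 and 66.2 with vehicle and 22.7 and 25.1 with GKA. Col26a1, listed as Emid2, changed by 0.46 ± 0.19 (limma adjusted p 0.148). The probes of Col6a4 (Dvwa) and Col6a5 (Gm7455) were well above background on 0 arrays.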
